A study of Mus musculus with 6 samples.

Results

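A group of 8 genes of oxidant production and mucosal defence was followed in sorted Lgr5-GFP high intestinal cells without and with interferon gamma (IFNg). They were Duox2, Duoxa2, Nos2, Nox1, Noxo1, Lcn2, Pigr and Retnlb. They were chosen by symbol for their function, and all 8 were among the 23127 genes of the table and among the 16095 tested, whose mean over libraries reached 10 scaled counts. Lgr5-GFP high cells, which carry a green fluorescent reporter of the crypt stem cell gene Lgr5, came from small intestines of Lgr5-GFP mice on the C57BL/6 strain. The design has 3 untreated libraries and 3 libraries of cells kept for 1.5 h with IFNg at 1 ng/ml in ENR medium, which holds EGF, Noggin and R-spondin1. Both groups carry the reporter, and titles of both hold "1.5", though no other label says how long untreated cells stood in medium. The sources used here give neither the age of the mice nor whether libraries came from separate animals. Untreated 1 and IFNg 2 had the Y-linked gene Ddx3y at 1.72 and 0.964 scaled counts and Xist, the RNA of the silent X chromosome, at 8336 and 6147. The other 4 libraries had Ddx3y at 4219 to 6346 and Xist at no more than 16.9, so these 2 differ from the other 4 in sex-linked genes and the 6 did not all come from 1 animal. P-values measure the spread between these libraries, which within a kind of animal may be technical.

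Epithelial cells of the gut make oxidants with enzymes of the NADPH oxidase family, which pass electrons from NADPH to oxygen. DUOX2 releases hydrogen peroxide at the apical surface and needs the maturation factor DUOXA2, while NOX1 releases superoxide and needs the organizer NOXO1, the activator NOXA1, the membrane partner p22phox (Cyba) and the GTPase Rac1. Nos2 encodes the inducible nitric oxide synthase, a known IFNg target in macrophages. Lipocalin 2 (Lcn2) binds bacterial siderophores and so withholds iron, the polymeric immunoglobulin receptor (Pigr) carries IgA across the epithelium, and RELM-beta (Retnlb) is a secreted product known from goblet cells.

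None of the 8 genes passed the test after 1.5 h of IFNg, at levels that ran from 17.5 scaled counts per kilobase of exon for Lcn2 to 22255 for Pigr. By limma on log2(scaled count + 1), 0 of 8 had an adjusted p below 0.05, the threshold used throughout, and 0 of 8 had an unadjusted p below it. Across all tested genes 0.429% were called, 67 genes higher and 2 lower, and 9.22% had an unadjusted p below 0.05, so a count of 0 of 8 by that measure is near the background. EdgeR and DESeq2 on reads recovered from the scaled values also called 0 of 8, where they called 0.385% and 3.27% of genes, and both had 0 of 8 at an unadjusted p below 0.05, against 9.39% and 11.6% of genes. With the pair of libraries described below as a block in limma, 0 of 8 and 0.466% of genes were called and 0 of 8 and 13.1% had an unadjusted p below 0.05. In the 4 libraries tagged GFP3 alone 0 of 8 and 8.34% were called. Log2 changes ran from -0.45 for Duox2 to 0.62 for Noxo1, with 3 above 0 and 5 below, and all 8 of their 95% intervals held 0. Their median log2 change was -0.08 and their median size, without sign, was 0.31, beside -0.08 and 0.31 over all tested genes.

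The same libraries held a large response of known IFNg targets. Irf1, a transcription factor of the interferon response, rose 33.6-fold from 1773.5 ± 89.3 to 59642 ± 6397 scaled counts (mean ± SD, n = 3 per group, limma adjusted p = 2.33e-05). Of 6 genes held as a check of the IFNg response, 5 rose in limma, Irf1, Irgm1, Gbp2, Cxcl10 and Socs1, while edgeR called 5 and DESeq2 called 6. Gbp2, a guanylate-binding protein of cell defence, rose 223-fold to 16217 ± 1633 (limma adjusted p = 2.64e-05). Libraries held 28508762 to 40224497 reads in genes. The first principal component (35.2% of the variance) set untreated 5 and IFNg 6, whose titles carry the tag GFP1, at 54.9 and 88.2, apart from the 4 libraries tagged GFP3 at -59.0 to -18.3. No label says what the tags mean. The second component (28.8% of the variance) set the untreated libraries at -44.5 to -41.4 and IFNg 6, 2 and 10 at 0.604, 45.9 and 80.9. Deviations from the group means tied untreated 5 to IFNg 6, untreated 1 to IFNg 2 and untreated 9 to IFNg 10, and these neighbours by number are called pairs below. The summed level of 12 crypt stem cell markers was 277378 to 321595 scaled counts in untreated and 293067 to 300819 in IFNg libraries, with 0 of 12 called. With the pair as a block in limma 0 were called too, and 5 of 12 had an unadjusted p below 0.05, beside 13.1% of all genes. The smallest p among them belonged to Smoc2 (log2 change 1.15, limma adjusted p = 0.395) and Ascl2 (1.21, 0.507).

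**Figure D1:**
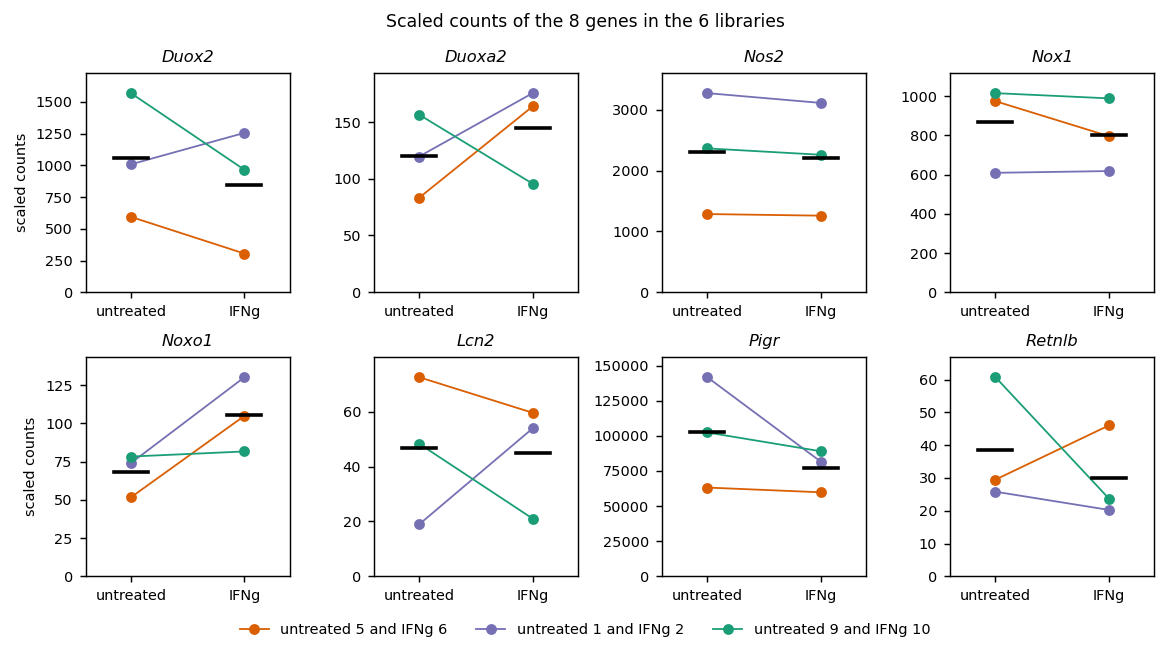
Scaled counts (y axis, from 0) of the 8 genes in untreated and IFNg libraries. Points are libraries, lines join neighbours by number and black bars are group means; the lines of Nos2 are nearly level, from 1286 to 1260, 3276 to 3115 and 2367 to 2262, and Noxo1 alone has no overlap between the groups.

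**Figure D2:**
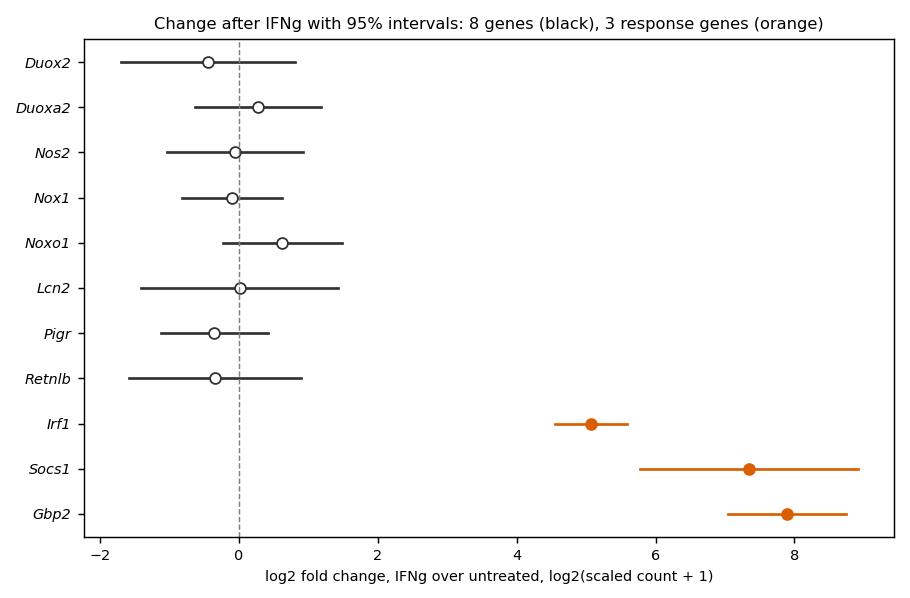
Log2 fold change of IFNg over untreated on the log2(scaled count + 1) scale with 95% intervals for the 8 genes and for 3 genes of the IFNg response. Filled points had an adjusted p below 0.05; the 8 genes lie between -0.45 and 0.62 and Irf1, Socs1 and Gbp2 between 5.07 and 7.90.

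Duox2 and Duoxa2 lie head to head on chromosome 2 (mm10). Duox2 covers 122279247 to 122298449 on the minus strand and Duoxa2 covers 122298900 to 122302885 on the plus strand, with 450 bases between the 2 genes. Duox1 and its own maturation factor Duoxa1 lie next to them in the same arrangement. These spans are GENCODE's, and the sequence windows below come from RefSeq (GRCm38.p6), 250 bases before to 50 after its own start site. For Duoxa2 both annotations have the same start, while the RefSeq start of Duox2 lies 222 bases inside the span just given, so most of its window is inside that span. To show the sequence around each RefSeq start, the windows are given for the pair, chr2:122298178-122298477 on the minus strand for Duox2 and chr2:122298650-122298949 on the plus strand for Duoxa2, each read 5′ to 3′.
Duox2: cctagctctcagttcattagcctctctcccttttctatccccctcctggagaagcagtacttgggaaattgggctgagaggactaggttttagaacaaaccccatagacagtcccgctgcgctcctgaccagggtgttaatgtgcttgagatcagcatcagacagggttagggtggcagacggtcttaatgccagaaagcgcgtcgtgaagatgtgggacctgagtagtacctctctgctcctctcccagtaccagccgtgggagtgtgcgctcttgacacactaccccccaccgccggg
Duoxa2: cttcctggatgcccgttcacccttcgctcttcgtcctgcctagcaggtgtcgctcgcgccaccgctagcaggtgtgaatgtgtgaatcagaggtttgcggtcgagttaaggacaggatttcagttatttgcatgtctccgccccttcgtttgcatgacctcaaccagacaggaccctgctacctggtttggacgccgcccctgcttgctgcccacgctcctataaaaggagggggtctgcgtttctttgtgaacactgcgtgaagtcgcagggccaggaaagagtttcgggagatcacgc

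A set of 3 motifs was searched on both strands of such windows: the gamma-activated site (GAS) as TTCNNNGAA, the core of the interferon-stimulated response element as GAAA, 2 bases of any kind and GAAA, and a kappaB element as GGG, 2 bases of any kind and TTTCC. They occurred in 8.30%, 3.44% and 1.63% of 32851 windows. The RefSeq table held a window for 6 of the 8 genes, all but Nos2 and Retnlb. Of these 6, 2 held a match, Pigr and Nox1, and neither Duox window did. The RefSeq start of Lcn2, whose window held no match, lies 513 bases inside its GENCODE span. A GAS lay 39 bases after the start site of Pigr, which did not pass the test, and another lay 90 bases before a start site of Irf1, which did. A further RefSeq window of Irf1, chr11:53770223-53770522 (plus strand), held none of the 3 motifs. Socs1, the feedback inhibitor of JAK kinases, rose 143-fold from 27.2 ± 27.5 to 3897 ± 2389 (limma adjusted p = 0.00124). Untreated 5, at 59.0, was far above the other untreated libraries at 10.3 and 12.4, and without it the log2 change went from 7.34 to 8.11. With the pair as a block the adjusted p was 0.0446. In its window 2 overlapping matches to the response element core began 83 and 77 bases before the start. These 3 windows are shown with the matches in capitals: chr1:130826434-130826733 (plus strand) for Pigr, chr11:53769764-53770063 (plus strand) for Irf1 and chr16:10785487-10785786 (minus strand) for Socs1. The kappaB letters occurred once, as GGAAAACCCC read along the gene, so on the opposite strand, 91 bases before the RefSeq start site of Nox1, which lies 110102 bases inside the GENCODE span of that gene. A match is a description of the letters and not a site of binding.
Pigr: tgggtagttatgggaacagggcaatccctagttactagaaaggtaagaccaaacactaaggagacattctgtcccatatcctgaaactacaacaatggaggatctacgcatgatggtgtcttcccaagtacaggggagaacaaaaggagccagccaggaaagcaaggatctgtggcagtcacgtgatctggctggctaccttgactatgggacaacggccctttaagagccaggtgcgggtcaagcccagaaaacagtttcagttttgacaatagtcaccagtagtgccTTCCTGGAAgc
Irf1: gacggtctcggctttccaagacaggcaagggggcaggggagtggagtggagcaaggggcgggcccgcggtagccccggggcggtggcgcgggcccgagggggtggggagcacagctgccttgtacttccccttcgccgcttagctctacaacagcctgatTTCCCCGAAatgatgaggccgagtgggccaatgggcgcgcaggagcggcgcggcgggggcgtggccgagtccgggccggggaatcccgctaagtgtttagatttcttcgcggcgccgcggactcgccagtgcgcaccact
Socs1: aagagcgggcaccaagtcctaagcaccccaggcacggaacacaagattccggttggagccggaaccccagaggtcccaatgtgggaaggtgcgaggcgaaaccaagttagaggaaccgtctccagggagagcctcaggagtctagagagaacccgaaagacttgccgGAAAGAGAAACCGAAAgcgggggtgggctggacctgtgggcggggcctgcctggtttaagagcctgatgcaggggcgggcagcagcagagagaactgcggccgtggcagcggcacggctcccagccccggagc

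Duox2, the peroxide-producing oxidase, stood at 594, 1008 and 1570 scaled counts in untreated 5, 1 and 9 and at 304, 1256 and 965 in IFNg 6, 2 and 10. The 2 libraries tagged GFP1 were the lowest of their groups and the groups overlapped, with a 5.16-fold range over all 6. The group means were 1057 ± 490 and 842 ± 488 (log2 change -0.45 ± 0.555 SE, 95% interval -1.71 to 0.81, limma adjusted p = 0.906). By pair, the ratio of IFNg to untreated was 0.512 in the GFP1 pair and 1.25 and 0.615 in the GFP3 pairs, so the direction differed between pairs.

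Duoxa2, without which DUOX2 does not leave the endoplasmic reticulum, stood at 83.2, 120 and 157 scaled counts untreated and at 164, 175 and 95.6 after IFNg. Its groups overlapped too, and the pair ratios were 1.97, 1.47 and 0.611. The mean went from 120 ± 36.7 to 145 ± 43.1 (log2 change 0.27 ± 0.401 SE, 95% interval -0.64 to 1.18, limma adjusted p = 0.921). In the GFP1 pair the enzyme had a ratio below 1 and its maturation factor one above 1, and both ratios were below 1 in untreated 9 and IFNg 10. Duoxa2 shares 682 exon bases with Duoxa1 on the opposite strand, and the libraries do not mark the strand, so reads there are uncertain. Duoxa1 itself averaged 15.6 scaled counts.

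The second DUOX pair was low. Per kilobase of exon, Duox2 was 71.0 times as high as Duox1 and Duoxa2 was 21.2 times as high as Duoxa1 over the 6 libraries. The lengths of Duoxa2 and Duoxa1 include the 682 bases they share, so the size of their ratio is uncertain. Duox1 had 4.21 to 20.7 scaled counts untreated and 3.41 to 14.0 after IFNg (limma adjusted p = 0.938), and Duoxa1 had 5.27 to 18.5 and 15.4 to 19.6 (limma adjusted p = 0.922). A single read was worth 0.853 to 1.05 scaled counts, so these values are close to read numbers.

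Nox1, the superoxide-producing oxidase of the X chromosome (134086421 to 134221956, minus strand), was the steadiest of the 8 across libraries, with a 1.67-fold range. It stood at 974, 609 and 1015 scaled counts in untreated 5, 1 and 9 and at 796, 618 and 989 in IFNg 6, 2 and 10. The groups overlapped, and the lowest library of each group was untreated 1 and IFNg 2. Means were 866 ± 224 and 801 ± 185 (log2 change -0.10 ± 0.318 SE, 95% interval -0.82 to 0.62, limma adjusted p = 0.961). Those same 2 libraries are the ones with high Xist and little Ddx3y. Nox1 shares 399 exon bases with Cstf2 on the opposite strand, a gene with a mean of 4756 scaled counts, so reads in that stretch are uncertain. It also encloses Xkrx and Arl13a without sharing exon bases. The part of sex in the Nox1 values was not tested.

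Noxo1, the organizer that holds the NOX1 complex at the membrane, was the only one of the 8 whose groups did not overlap. It stood at 51.6, 74.0 and 78.3 scaled counts untreated and at 105, 130 and 81.6 after IFNg, with a gap between the groups of 78.3 to 81.6. Of all tested genes, 13.2% had groups without overlap, and 8.13% had them with IFNg higher as here, so 1 of 8 is near the background. The pair ratios were 2.03, 1.76 and 1.04, all above 1, which 15.1% of tested genes also had. The mean went from 68.0 ± 14.3 to 106 ± 24.3 (log2 change 0.62 ± 0.379 SE, 95% interval -0.23 to 1.48, limma adjusted p = 0.780). Noxo1 (chromosome 17, 24696234 to 24700529, plus strand) shares 2122 of its 3013 exon bases with Tbl3 on the opposite strand, so its values are uncertain. Tbl3 itself was at 2363 ± 113 and 1962 ± 161.

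The other subunits of the NOX1 complex had higher scaled counts than its organizer. Per kilobase, the activator Noxa1 was 6.86 times and the membrane partner Cyba 17.8 times as high as Nox1. Noxa1 was 60.0 times as high as Noxo1, but the length of Noxo1 includes the 2122 bases shared with Tbl3. The size of that ratio is therefore uncertain. Noxa1 stood at 2859 ± 175 and 2730 ± 286 (limma adjusted p = 0.965) and Cyba at 5000.4 ± 397 and 4332 ± 894 (0.901), with a log2 interval of -0.60 to 0.46 for Noxa1. Rac1, the GTPase of the complex, stood at 1635, 644 and 821 untreated and at 2333, 1966 and 7416 after IFNg. Its groups did not overlap, which 8.13% of tested genes also had with IFNg higher, and IFNg 10 was far above the rest. Rac1 did not pass in limma (log2 change 1.76 ± 0.536 SE, adjusted p = 0.318). It passed in DESeq2 (adjusted p = 0.0344) and in the GFP3 libraries alone (limma adjusted p = 0.0326), and over the alternatives its adjusted p reached 0.949. For Rac3, a related GTPase, the log2 change was 1.11 (limma adjusted p = 0.568). Cybb, the phagocyte oxidase, had 0 to 13.5 scaled counts in any library. Of 15 tested NADPH oxidase genes, limma and edgeR called 0 and DESeq2 called 1, while 1 had an unadjusted limma p below 0.05, and the median log2 change was 0.08.

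Nos2 (chromosome 11, 78920787 to 78960254, plus strand) was already expressed in untreated cells and stayed within a few percent of that level in every pair. It stood at 1286, 3276 and 2367 scaled counts in untreated 5, 1 and 9 and at 1260, 3115 and 2262 in IFNg 6, 2 and 10. The pair ratios were 0.979, 0.951 and 0.956, all below 1 as in 22.4% of tested genes, while the pairs themselves differed by up to 2.51-fold, so the spread lay between pairs and the groups overlapped almost fully. Means were 2310 ± 996 and 2212 ± 929 (log2 change -0.06 ± 0.433 SE, 95% interval -1.04 to 0.93, limma adjusted p = 0.985). With the pair as a block the 95% interval narrowed to -0.47 to 0.36. The other synthases were near absent: Nos1 averaged 10.9 scaled counts in each group and Nos3 6.57 and 3.02.

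Around Nos2, the enzymes that share its substrate arginine did not pass: Arg1 was at 182 ± 31.6 and 159 ± 35.5, Arg2 at 1088 ± 218 and 979 ± 200, Ass1, which remakes arginine's precursor, at 55.7 ± 11.9 and 53.1 ± 14.1, and the arginine transporter Slc7a2 at 341 ± 176 and 330 ± 112 (limma adjusted p from 0.928 to 0.993). Gch1, which starts the synthesis of the nitric oxide synthase cofactor tetrahydrobiopterin, stood at 1480, 566 and 509 scaled counts untreated and at 1863, 2568 and 2830 after IFNg. Its groups did not overlap, which 8.13% of tested genes also had with IFNg higher, and untreated 5 was far above the other untreated libraries. It did not pass in limma (log2 change 1.66 ± 0.421 SE, adjusted p = 0.282), and it passed in DESeq2 (adjusted p = 0.0407), in limma without untreated 5 (0.0133) and in the GFP3 libraries alone (0.00199), with up to 0.937 elsewhere. Ddah1 clears an inhibitor of nitric oxide synthases and went from 55.5 ± 28.6 to 178 ± 75.9 scaled counts (limma adjusted p = 0.296, DESeq2 adjusted p = 0.0391). Of 17 tested genes of nitric oxide synthesis and arginine use, limma and edgeR called 0 and DESeq2 called 2, while 2 had an unadjusted limma p below 0.05, and the median log2 change was -0.06.

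Of 25 tested antioxidant and NRF2 genes, which handle peroxide and glutathione, limma and edgeR called 0 and DESeq2 called 2, while 5 had an unadjusted limma p below 0.05, and the median log2 change was 0.01. Across all genes DESeq2 called 3.27%, and 9.22% had an unadjusted limma p below 0.05. Groups did not overlap for 5 of the 25, all higher after IFNg, as for 8.13% of tested genes. Txnrd1, the cytosolic thioredoxin reductase, stood at 12019 ± 1381 and 28875 ± 6700 (log2 change 1.24, limma adjusted p = 0.159, DESeq2 adjusted p = 0.00103, limma in the GFP3 libraries alone 0.0070). Gsr, the glutathione reductase, stood at 1440.4 ± 1020.1 and 4747 ± 2329 (limma adjusted p = 0.296, DESeq2 adjusted p = 0.0506, limma in the GFP3 libraries alone 0.0044). The second gene that DESeq2 called was Gclm, a subunit of the enzyme that starts glutathione synthesis, named here after its values were seen. It stood at 285, 205 and 148 scaled counts untreated and at 438, 498 and 1906 after IFNg (limma adjusted p = 0.312, DESeq2 adjusted p = 0.0163, limma in the GFP3 libraries alone 0.0347). Its groups did not overlap, and IFNg 10 stood far above the rest.

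Lcn2 (chromosome 2, 32384633 to 32388252, minus strand) was the lowest of the 8 per kilobase, with pair ratios on both sides of 1. It stood at 72.7, 18.9 and 48.4 scaled counts untreated and at 59.7, 54.0 and 21.1 after IFNg, which rested on 22 to 70 reads per library. For untreated 1 the 22 reads gave an exact 95% Poisson interval of 11.9 to 28.7 scaled counts, which covers counting error only and lies below the 35.6 to 64.4 of untreated 9. Pair ratios were 0.821, 2.85 and 0.435. Means were 46.7 ± 26.9 and 44.9 ± 20.9 (log2 change 0.01 ± 0.625 SE, 95% interval -1.41 to 1.42, limma adjusted p = 0.999), and the sign of the change turned with TMM scaling (-0.037).

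In the list of siderophore binding and iron withholding, limma and edgeR called 0 of 11 tested genes and DESeq2 called 1, which alone had an unadjusted limma p below 0.05, and the median log2 change was -0.10. That gene was Slc22a17, described as a lipocalin 2 receptor, at 15.8, 6.88 and 10.3 scaled counts untreated and at 18.8, 74.2 and 91.2 after IFNg (log2 change 2.17 ± 0.699 SE, limma adjusted p = 0.337, DESeq2 adjusted p = 0.0328). The groups did not overlap, which 8.13% of tested genes also had with IFNg higher. IFNg 6 stood close to the untreated libraries and IFNg 2 and 10 far above them. Ftl1, the ferritin light chain, stood at 29167 ± 3831 and 24574 ± 6715 (limma adjusted p = 0.891).

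Pigr (chromosome 1, 130826684 to 130852249, plus strand) was by far the highest of the 8. Per kilobase of exon it averaged 22255 scaled counts, above 99.7% of tested genes and 43.4 times Nos2, the next in order. Libraries stood at 63129, 141690 and 102348 scaled counts untreated and at 59767, 81568 and 88964 after IFNg. The IFNg library of each pair was the lower one, with ratios of 0.947, 0.576 and 0.869, but the groups overlapped, and Nos2 and Pigr were the 2 of 8 genes lower in all 3 pairs, against the 22.4% given above. Means were 102389 ± 39281 and 76767 ± 15179 (log2 change -0.36 ± 0.341 SE, 95% interval -1.13 to 0.41, limma adjusted p = 0.886). In bulk libraries, fewer cells with a transcript and less RNA per cell cannot be told apart. The 11 enterocyte markers had a summed level of 33607 to 37812 scaled counts untreated and of 26508 to 38219 after IFNg, with 2 of 11 log2 changes above 0, none of the 11 at 0 in every library and 0 called. The smallest p among them belonged to Apoa4 (limma adjusted p = 0.842) and Krt20 (0.858). Their part in the Pigr values was not tested.

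In the list of IgA transport and the signals that supply it, 0 of 12 tested genes passed in limma, edgeR or DESeq2 and 0 had an unadjusted limma p below 0.05, with a median log2 change of -0.23. Ccl28, a chemokine that draws IgA-secreting cells, stood at 4625 ± 1203 and 3241 ± 525 (limma adjusted p = 0.721), and Fcamr, a receptor for IgA and IgM, at 52.9 ± 22.1 and 83.8 ± 32.0 (0.849). Jchain, the joining chain of polymeric IgA made by plasma cells, had 200.5 scaled counts in IFNg 2 and at most 17.9 in the other 5 libraries, and it did not pass (limma adjusted p = 0.963). The summed leukocyte markers, 12 of them measured, were at 417 to 505 scaled counts untreated and at 394 to 649 after IFNg, with 4 of 9 tested log2 changes above 0, 0 called and none at 0 in every library. Lyz2 (limma adjusted p = 0.765) and Csf1r (0.931) had the smallest p. IFNg 2 held the highest sum, and its part in the Jchain value was not tested.

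Retnlb (chromosome 16, 48816856 to 48818892, plus strand) was low and its highest value was in an untreated library. It stood at 29.5, 25.8 and 60.8 scaled counts in untreated 5, 1 and 9 and at 46.1, 20.2 and 23.7 in IFNg 6, 2 and 10, from 21 to 59 reads per library. The groups overlapped, and the ratio was 1.56 in the GFP1 pair and 0.784 and 0.390 in the GFP3 pairs. Means were 38.7 ± 19.2 and 30.0 ± 14.0 (log2 change -0.34 ± 0.546 SE, 95% interval -1.58 to 0.89, limma adjusted p = 0.928). Muc2, the mucin that defines goblet cells, was also highest in untreated 9, at 12430 scaled counts against 3078 to 7524 in the other libraries. Elsewhere the genes differed, since Muc2 was lowest in IFNg 6, where Retnlb stood at 46.1. Muc2 reached 7524 in IFNg 10, where Retnlb stood at 23.7. The 10 goblet cell markers summed to 113489 to 320500 scaled counts untreated and to 122210 to 205216 after IFNg, with 2 of 10 log2 changes above 0, none at 0 in every library and 0 called. Clca3a1 (limma adjusted p = 0.836) and Spink4 (0.880) had the smallest p. Their part in the Retnlb values was not tested. Retn, a relative of Retnlb, had 0 to 7.90 scaled counts, and Retnla and Retnlg were not analysed here.

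Secreted antimicrobial proteins, among them Paneth cell products, did not pass. Of 15 tested genes in this list 6 had a log2 change above 0, 0 passed in limma, edgeR or DESeq2 and 0 had an unadjusted limma p below 0.05, with a median log2 change of -0.17. With the pair as a block 0 were called and 5 of 15 had an unadjusted limma p below 0.05, beside the 13.1% of all genes. These 5, named after their values were seen apart from Ang4 and Lyz1, were lower after IFNg in all 3 pairs, as were 22.4% of tested genes. Their 95% block intervals of the log2 change were -1.98 to -0.62 for Itln1, -1.25 to -0.31 for Reg4, -1.73 to -0.24 for Ang4, -2.16 to -0.32 for Lyz1 and -1.14 to -0.06 for Pla2g2a. The 5 were picked by the p of that same fit, so intervals without 0 follow from the choice and add no evidence. Lyz1, the Paneth cell lysozyme, stood at 34590, 62150 and 125048 scaled counts untreated and at 6940, 39045 and 75657 after IFNg (limma adjusted p = 0.821). Ang4, a bactericidal ribonuclease, stood at 4595 ± 2108 and 2479 ± 1335 (limma adjusted p = 0.641). The 11 Paneth cell markers, summed, were at 110081 to 367970 untreated and at 24739 to 205327 after IFNg, with 0 of 11 log2 changes above 0, 0 called and none at 0 in every library. With the block 6 of 11 had an unadjusted p below 0.05, Lyz1, Itln1 and Ang4 among them, and 0 were called. After Ang4, Defa26 had the smallest p (limma adjusted p = 0.717).

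Ordered per kilobase, the 8 genes ran from Pigr through Nos2 (512 scaled counts per kb), Nox1 (252), Duox2 (140), Duoxa2 (83.1), Retnlb (49.3) and Noxo1 (28.8) to Lcn2 (17.5). Only the step from Pigr to Nos2 was larger than the spread, since its ranges over the 6 libraries did not overlap. All lower neighbours had overlapping ranges, though Nox1 was above Duox2, and Duoxa2 above Retnlb, in 6 of 6 libraries, and the other neighbours kept their order in 5 of 6. The lengths used for Noxo1, Duoxa2 and Nox1 include exon bases shared with Tbl3, Duoxa1 and Cstf2. For Duoxa2 these are 682 of 1592 bases, so its place in this order is uncertain, as is that of Noxo1. Nos2 was above 78.4% of tested genes per kilobase, Duox2 above 53.9% and Lcn2 above 21.0%.

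**Figure D3:**
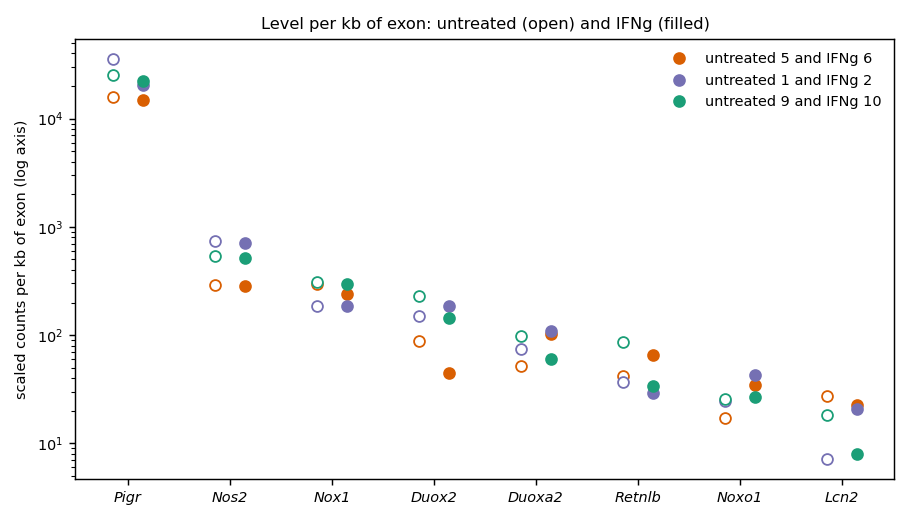
Scaled counts per kilobase of exon (log axis) of the 8 genes in the 6 libraries, open for untreated and filled for IFNg, coloured by pair. Pigr averages 22255 and stands apart from the other 7, whose neighbours overlap.

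Some genes of the signals known to induce these 8 rose. Of 20 tested receptors and adaptors of such signals, 2 rose in limma, edgeR and DESeq2 each called 2, and the median log2 change was 0.43. Tnfrsf1a, the main receptor for TNF, rose 8.65-fold, from 846, 1239 and 1294 scaled counts to 6231, 13161 and 9826 (log2 change 3.07 ± 0.334 SE, limma adjusted p = 0.00353). Myd88, the adaptor of Toll-like and interleukin 1 receptors, rose 3.22-fold from 2747 ± 204 to 8838 ± 821 (limma adjusted p = 0.0168). Leaving out any 1 library but untreated 5 ended the Myd88 call. Its adjusted p was then 0.0592 (untreated 1), 0.110 (untreated 9), 0.0504 (IFNg 6), 0.176 (IFNg 2) or 0.0788 (IFNg 10), at log2 changes of 1.64 to 1.76. The receptor chains of IFNg stood at 24434 ± 9674 and 14458 ± 3048 for Ifngr1 (limma adjusted p = 0.561) and at 1645 ± 1192 and 3249 ± 68.2 for Ifngr2 (0.403).

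Of 29 transcription factors known to act on the 8 genes or their relatives, 4 rose in limma, 3 in edgeR and 14 passed in DESeq2, with 25 log2 changes above 0 and a median of 1.29, beside -0.08 over all tested genes. The list holds interferon factors, and results of these libraries were known when it was drawn up, so it is not independent evidence of a direction. The 4 were Irf1, Irf8 (6.89-fold, limma adjusted p = 8.03e-04), Irf9 (4.48-fold, 0.00321) and Stat2 (7.34-fold, 0.0333). Stat2 did not pass in edgeR (adjusted p = 0.0554), with the pair as a block (0.0691), or once untreated 9 (0.120), IFNg 6 (0.0670), IFNg 2 (0.157) or IFNg 10 (0.119) was left out. Nfkbiz, a nuclear cofactor of NF-kB that acts on Lcn2, stood at 797 ± 254 and 2374 ± 813 (limma adjusted p = 0.185, DESeq2 adjusted p = 0.00371), and Cebpb, another activator of Lcn2, at 20.8 ± 9.32 and 36.0 ± 13.9 (limma adjusted p = 0.849). Cebpd, a related C/EBP factor named after its values were seen, stood at 83.2, 8.60 and 14.4 scaled counts untreated and at 321, 328 and 1288 after IFNg. Its groups did not overlap, which 8.13% of tested genes also had with IFNg higher. For Cebpd, untreated 5 was the highest untreated library and IFNg 10 the highest of all. It did not pass in limma (log2 change 4.47 ± 0.839 SE, adjusted p = 0.0874), edgeR (0.195) or with the block (0.224). It passed in DESeq2 (adjusted p = 6.43e-05), in limma without untreated 5 (0.00707) and in the GFP3 libraries alone (0.00266).

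**Figure D4:**
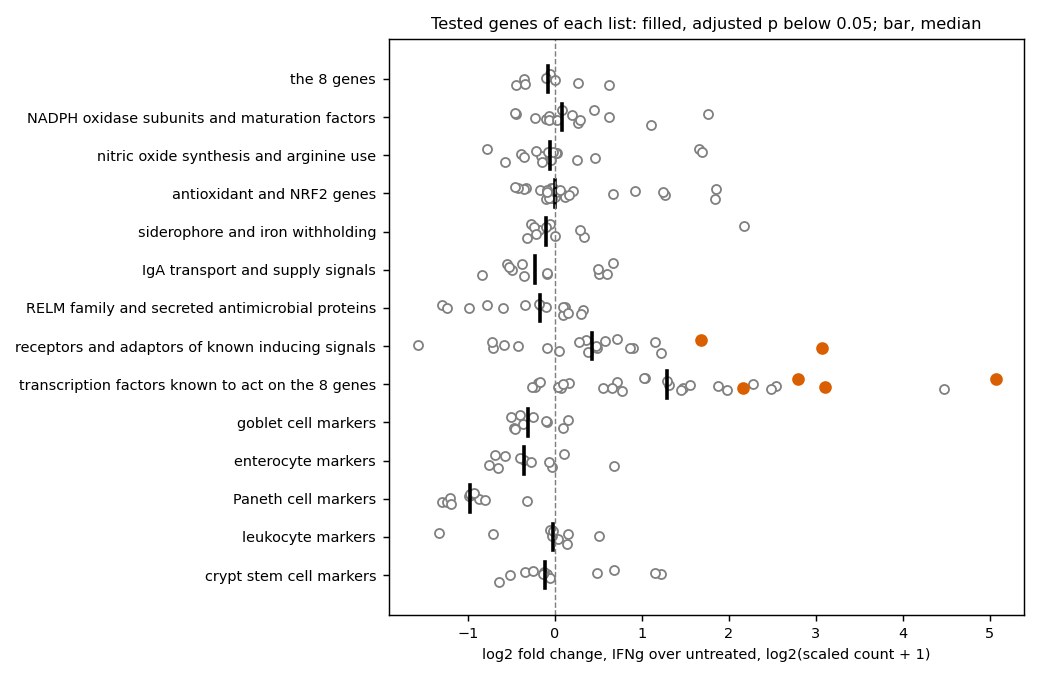
Log2 fold change on the log2(scaled count + 1) scale of every tested gene in each list, with the list's median as a bar. Filled points passed limma at an adjusted p below 0.05: 2 receptors and adaptors and 4 transcription factors, and none of the 8 genes.

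Whether the change after IFNg differed between the libraries tagged GFP1 and GFP3 was fitted as an interaction term in limma. With 1 GFP1 library per group, the spread comes from the GFP3 libraries and the lone libraries are assumed to vary like them, so a count of 0 does not show that the tags respond alike. Of all tested genes 0% passed and 2117 had an unadjusted p below 0.05, among them 0 of the 8, and the adjusted p of the 8 genes was 0.630 for Retnlb to 0.989 for Nos2.

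Genes whose levels followed each of the 8 most closely across the 6 libraries were found by Pearson correlation of log2 values, as a description of libraries that share pairs, depth and treatment. They were Fbxo43 and Hyou1 for Duox2 (0.996 and 0.993), Obfc1 and Bambi-ps1 for Duoxa2 (0.976 and 0.965), 3830403N18Rik and St14 for Nos2 (0.997 and 0.996), and 4930481B07Rik and Gm13357 for Nox1 (0.989 and 0.988). For the others they were Gm43609 and Herc6 for Noxo1 (0.976 and 0.966), Gm29257 and Zfp619 for Lcn2 (0.985 and 0.976), Aldh6a1 and Tug1 for Pigr (0.999 and 0.999), and RP23-136G1.3 and Cebpz for Retnlb (0.994 and 0.990). With 6 libraries and 16095 genes such values are reached by many genes, and Duox2 and Duoxa2 were not among each other's closest.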

How the data were processed

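RNA from sorted Lgr5-GFP high cells was measured in 3 untreated and 3 IFNg libraries. Per the labels' protocols, 2 ng of RNA was amplified for 12 cycles by SMART-Seq v4 and 10 ng of cDNA for 8 more with a KAPA kit. This chemistry keeps no strand and has no molecular identifiers. The Poisson intervals given for Lcn2 cover counting error of reads only, while limma intervals come from the spread between libraries. The values in the table that the authors deposited are a signal, scaled counts, equal to reads over 1 size factor per library. Per the submitters' processing notes, mm10, STAR 2.5.0a, DESeq 1.22.1, HTSeq 0.5.3 and cutadapt 1.6 were used, in roles left unstated, and the counting's strand setting and annotation were not stated either.

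Dividing by each library's smallest step gave whole reads for 100% of 138762 values (within 0.01 read). The 4 rows naming no gene (unaligned, ambiguous, outside genes, several alignments) were left out; reads with several alignments were 18.5% to 25.0% of all values. A count of 0 allows 3 reads, or 2.56 to 3.16 scaled counts. No 2 libraries matched within sampling noise (chi-square per degree of freedom at least 62.7).

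Groups came from the titles, and end numbers name replicates. Deviations from group means correlated at 0.302, 0.404 and 0.252 within neighbouring numbers (5 and 6, 1 and 2, 9 and 10), which are taken as pairs from the data, not the labels. The test was limma 3.58.1 (R 4.3.3; trended, robust prior; two-sided) on log2(scaled count + 1) over the 16095 genes whose mean reached 10, with Benjamini-Hochberg adjustment over all of them. This scale understates changes of low genes; folds are ratios of means. Alternatives were edgeR 4.0.16 (quasi-likelihood, 60 higher and 2 lower) and DESeq2 1.42.0 on the recovered reads, TMM scaling, pseudocounts of 10 and 0.1, other filters and priors, the pair or title tag as a term, the GFP3 libraries alone and leaving out each library.

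Genes named were the 8, fixed partners, called genes of 14 lists and, where fewer than 2 were called, those with the 2 smallest p. The 8 genes and the lists were chosen with earlier results of these data known. Exon lengths and positions came from GENCODE for GRCm38 (23006 of 23127 IDs matched), promoter windows from RefSeq GRCm38.p6. The result of 1 gene the rule names is not reported here.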

Additional observations from a re-analysis of the deposited data

How the results depend on the processing

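None of the 8 genes was called under any of the 17 alternatives (16 for Lcn2 and Retnlb, which fall below a mean of 50), and the lowest adjusted p was 0.365. The pair as a block changed no call of theirs (0 of 8, 75 of all genes). It narrowed the 95% interval of the log2 change to -0.47 to 0.36 for Nos2 and to -0.84 to 0.12 for Pigr. For Duox2 the block interval was -1.15 to 0.25 and for Nox1 -0.58 to 0.37, also narrower. That of Duoxa2 was slightly wider, at -0.67 to 1.21, and those of Noxo1, Lcn2 and Retnlb changed little. Noxo1 and Pigr kept the sign of their log2 change throughout. Duoxa2 turned to -0.078 in the GFP3 libraries alone. Lcn2, near 0 in the report, was at -0.10 in edgeR, -0.033 in DESeq2, -0.037 with TMM scaling and -0.0041 with a pseudocount of 10. Leaving out 1 library at a time gave log2 changes of -0.85 to 0.17 for Duox2, -0.43 to 0.30 for Nos2, -0.34 to 0.070 for Nox1, -0.53 to 0.47 for Lcn2 and -0.69 to 0.026 for Retnlb, which span both signs, of 0.03 to 0.54 for Duoxa2, 0.44 to 0.80 for Noxo1 and -0.67 to -0.09 for Pigr. The cause was not tested. Over all genes, 69 were called in the report, 465 in DESeq2, 111 with the title tag as a term, 1343 in the GFP3 libraries alone and 41 to 369 with 1 library left out (369 without untreated 5, 41 without IFNg 2, 45 without IFNg 10). The interaction with the title tag called 28 genes with a pseudocount of 0.1, none of them among the 8, and 0 under the other settings run for it. With 21 to 70 reads per library, Lcn2 and Retnlb are limited by counting error as well as by the spread between libraries.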
